A study of Mus musculus with 2 samples.

Results

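The B cell and plasma cell transcription factors Pax5, Bcl6, Bach2, Ebf1, Spib, Prdm1, Irf4, Irf8, Pou2af1 and Pou2f2 were examined in mouse hybridoma cells given the bursal peptide BSP-II. A hybridoma is a line that secretes antibody and comes from the fusion of a myeloma cell to a B cell, and BSP-II is a peptide of the bursa of Fabricius, the organ in which birds form B cells. The factors were taken by name, as every non-control probe whose RefSeq accession belongs to 1 of these 10 genes. Of the 17302 genes that could be named on the arrays, 9 were such factors, with 10 probes, and no probe was matched to Bach2. The BSP-II group was 1 array of cells of the line labelled 1H5F9, cultured for 4 h with 5 µg/ml BSP-II. The untreated group was 1 array of the same line, cultured for 4 h with 0 µg/ml. Both were grown in the same serum-supplemented medium, and total RNA was labelled with Cy3 and read in 1 colour. All values thus describe 1 hybridoma line, a tumour-derived fusion and not primary B cells. The design text mentions 2 independent experiments on separate cells, while both arrays are labelled as replicate 1 and any other replicate is not analysed here. Since each group is 1 array, differences carry no p-value and no spread between replicates, and "higher" and "lower" describe these arrays alone.

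In a B cell, Pax5 and Ebf1 hold the B cell programme in place by switching on genes of the B cell receptor and its partners. Bcl6 and Bach2 are repressors that keep an activated B cell from becoming a plasma cell, in part by repressing Prdm1. Prdm1 encodes Blimp-1, a repressor that shuts down Pax5, Bcl6 and their targets, and Irf4 at high dose drives the same transition. Spib, an ETS factor, binds DNA together with Irf4 or Irf8. Pou2f2 (Oct-2) and its coactivator Pou2af1 (OCA-B) act on the octamer element of immunoglobulin promoters at both stages.

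On both arrays the plasma cell factors Prdm1 and Irf4 lay far above the limit of detection. Of the B cell factors, Bcl6 and Spib were clearly detected, Ebf1 lay close to that limit, and Pax5 was not well above background on either array. Of the 9 factors with a probe, 7 were well above background on both arrays, which is Agilent's own detection call, against 74.3% of all named genes. None of these 7 differed by 1.5-fold between the BSP-II and untreated arrays, against 6.04% of the 12855 genes detected on both. The greatest difference among them was that of Irf4, 1.19-fold lower with BSP-II.

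Signals below are Agilent's processed signals, from which background was subtracted, each given with Agilent's error for that spot. They are not scaled between arrays. The 75th percentile of each array, used for scaling, was 356 on the BSP-II array and 309 on the untreated array. A signal 1.15 times higher on the BSP-II array therefore stands for no difference after scaling. The lowest signal called well above background was 7.66 on the BSP-II array and 11.8 on the untreated array. Probes differ in how strongly they bind, so the signals of different genes were not ranked, and each is set against these lowest signals. In bulk RNA, fewer cells of a type and less RNA per cell cannot be told apart.

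Pax5, the factor that commits cells to the B lineage, had a processed signal of 5.08 ± 1.82 on the BSP-II array and 2.77 ± 2.77 on the untreated array (spot error). Its raw spot brightness was 49.5 over a local background of 38.5 with BSP-II, and 51 over 42 without. Neither signal was well above background, as for 19.7% of named genes on both arrays. Agilent's other call, positive and significant, was made for Pax5 on the BSP-II array but not on the untreated array. Of 153 negative control spots, 1 was at least as bright as the Pax5 spot on the BSP-II array and 49 were on the untreated array. No fold is given for Pax5, since both values lie below the lowest detected signals.

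Ebf1, which works with Pax5 early in B cell development, had a signal of 25.1 ± 3.0 on the BSP-II array and 23.2 ± 3.44 on the untreated array. These were 3.28 and 1.96 times the lowest detected signal of each array, so that Ebf1 was detected but dim. Of 153 negative control spots, 0 were at least as bright on the BSP-II array and 2 on the untreated array. The well-above-background call itself was made for 1 negative control spot with BSP-II and 3 without. Scaled, its log2 difference of BSP-II minus untreated was −0.09 with a spot error of 0.27. For a log2 difference, the spot error combines Agilent's errors on both arrays. The sign of the Ebf1 difference turned under median, quantile and loess scaling, where the values were 0.03, 0.03 and 0.09.

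Bcl6, the repressor of the germinal centre B cell, had a signal of 217 ± 21.7 with BSP-II and 174 ± 17.6 without. Its log2 difference of 0.11 was the highest of the 7 detected factors and stayed within its spot error of 0.21. Spib had a signal of 204 ± 20.4 with BSP-II and 176 ± 17.8 without. After scaling its log2 difference was 0.01, with a spot error of 0.21. Both factors were detected at more than 14 times the lowest detected signal of either array, and neither differed beyond its spot error.

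Prdm1 had a signal of 4974 ± 497 on the BSP-II array and 4829 ± 483 on the untreated array, 650 and 408 times the lowest detected signals. After scaling it was lower with BSP-II, by a log2 difference of −0.16 with a spot error of 0.20. Irf4 had a signal of 2867 ± 287 with BSP-II and 2967 ± 297 without. Its log2 difference, −0.25 with a spot error of 0.20, was the only one of the 7 larger than its spot error. Among all genes detected on both arrays, 33.6% exceeded theirs. This error is Agilent's estimate, with a median of 0.20 over these genes, and not a spread measured between repeat spots. Across 158 probes with at least 5 detected spots, the log2 differences of repeat spots had a smaller spread, a median standard deviation of 0.07. That spread holds within these arrays and does not cover differences between cultures. The sign of both plasma cell factors was the same under every scaling, background and probe choice that was tried, at −0.16 to −0.04 for Prdm1 and −0.27 to −0.13 for Irf4.

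**Figure D1:**
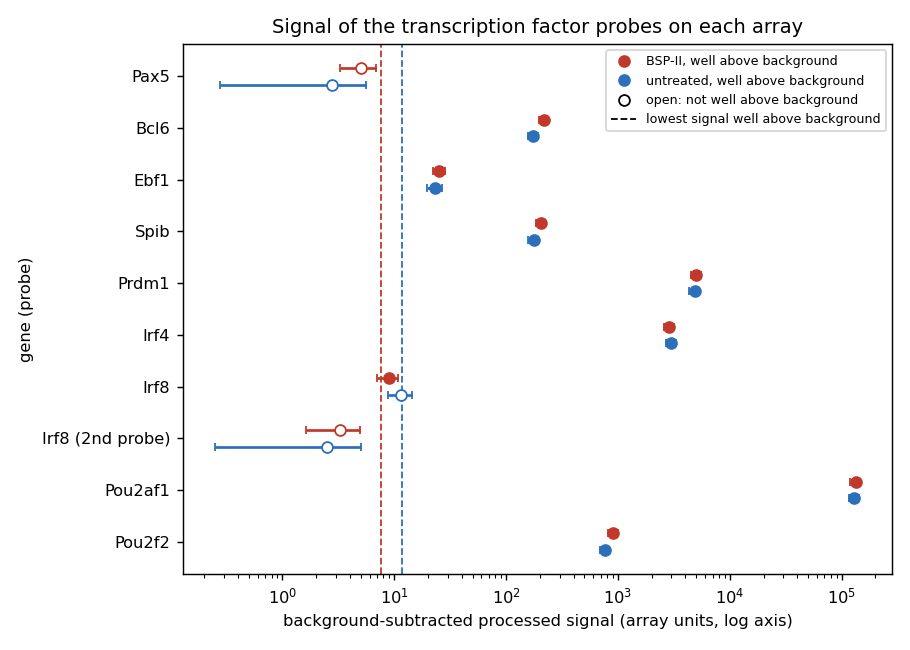
Processed signal (log axis, array units) of the 10 probes of 9 factors on the BSP-II array (red) and the untreated array (blue), with Agilent's spot error as bars, shortened on the low side where the error is as large as the signal. Dashed lines mark the lowest detected signals, 7.66 and 11.8. Pax5 and the dimmer Irf8 probe lie below both lines, while Prdm1, Irf4, Pou2f2 and Pou2af1 lie far above.

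Irf8, a factor of germinal centre B cells and of myeloid cells, was measured by 2 probes. The brighter had a signal of 8.87 ± 1.91 on the BSP-II array, which was called well above background, and 11.5 ± 2.84 on the untreated array, which was not. The call was thus made on the array with the lower signal, where the lowest detected signal was also lower. Genes detected on the BSP-II array alone made up 5.6% of named genes, and those on the untreated array alone 0.422%. The other Irf8 probe had 3.29 ± 1.66 with BSP-II and 2.50 ± 2.49 without and was detected on neither array. No fold is given, because the untreated signal was not detected. After scaling, the BSP-II signal of the brighter probe was only 0.651 of the lowest detected signal of the untreated array.

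Pou2af1 had a signal of 132694 ± 13269 with BSP-II and 128531 ± 12853 without, and its spot was not saturated on either array. Its log2 difference was −0.16, with a spot error of 0.20, and its values under other processing ran from −0.16 to −0.04. Pou2f2, its DNA-binding partner, had 899 ± 89.9 with BSP-II and 759 ± 75.9 without. The log2 difference of Pou2f2 was 0.04, with a spot error of 0.20. It lay above 0 under every scaling, background and local median subtraction tried, up to 0.16. Neither octamer factor differed beyond its spot error.

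The promoters of 3 factors are shown, because Prdm1 lay far above the limit of detection and Pax5 below it, and Bcl6 is the repressor of the germinal centre that opposes Prdm1. They are RefSeq windows of GRCm38.p6, the 250 bases before a transcript start, 5′ to 3′ on the gene's strand. Capitals mark matches, on either strand, to the letter strings searched for the listed factors. All 3 genes lie on the minus strand: Prdm1 at chr10:44458749-44458998, Pax5 at chr4:44710695-44710944 and Bcl6 at chr16:23981284-23981533.
Prdm1: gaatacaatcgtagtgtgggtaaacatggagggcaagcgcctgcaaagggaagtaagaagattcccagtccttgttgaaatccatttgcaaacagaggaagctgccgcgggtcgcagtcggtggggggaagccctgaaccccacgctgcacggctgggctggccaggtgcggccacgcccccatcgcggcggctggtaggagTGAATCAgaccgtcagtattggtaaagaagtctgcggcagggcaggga
Pax5: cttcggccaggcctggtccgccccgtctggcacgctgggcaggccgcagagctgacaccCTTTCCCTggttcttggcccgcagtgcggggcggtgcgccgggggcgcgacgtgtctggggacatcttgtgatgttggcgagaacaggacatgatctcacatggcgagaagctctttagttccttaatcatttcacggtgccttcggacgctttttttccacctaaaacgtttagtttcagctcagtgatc
Bcl6: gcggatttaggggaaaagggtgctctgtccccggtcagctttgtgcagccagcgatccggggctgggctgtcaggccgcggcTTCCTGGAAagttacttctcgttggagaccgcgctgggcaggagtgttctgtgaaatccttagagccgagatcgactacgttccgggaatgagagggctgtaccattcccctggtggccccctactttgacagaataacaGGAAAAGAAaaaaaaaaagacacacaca

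The Prdm1 window holds TGAATCA, a match to TGANTCA, the letters searched for Bach2 and AP-1, starting 48 bases before the transcript start. The search let any base stand in the middle, so it was looser than the sites these factors prefer, and the A here may not be such a site. A match of this loose kind is found in 7.81% of 32851 promoter windows of 300 bases. The Pax5 window holds CTTTCCCT, the reverse complement of a match to the Blimp-1 letters AGNGAAAG, which 8.63% of windows hold. The Bcl6 window shown, 1 of 2 in the table, holds TTCCTGGAA, which matches the Bcl6 letters TTCCTNGAA (1.59% of windows), and GGAAAAGAA, which matches GGAANNGAA, the joint letters of Spib or Spi1 with Irf4 or Irf8 (8.24%). The other Bcl6 window holds none of the 7 motifs searched for the factors. Of those 7 motifs, over the 13 windows of all 10 factors, the octamer ATGCAAAT and the Ebf1 letters CCCNNGGGA were in none. They are in 1.74% and 6.56% of all windows. GAAANNGAA, for Irf4 or Irf8, is in 8.56% of all windows and was in 1 of the 13, a window of Ebf1. Matches to it can overlap those to GGAANNGAA and AGNGAAAG, and matches to these other motifs overlap in the Bach2 window. These matches describe letters and were not tested as binding sites.

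The differences of the 7 detected factors ran from −0.25 to 0.11 with a median of −0.09, beside a median of −0.03 and quartiles of −0.18 and 0.11 over all 12855 genes. Of these, 1.21% were at least 1.5-fold higher with BSP-II and 4.83% at least 1.5-fold lower, and no factor was in either class. The 156 higher and 621 lower genes split 20.1% to the higher side. That split was 44.7% with each array scaled to its median, 35.2% with quantile and 39.3% with loess scaling. In the authors' deposited table it was 54.6%, so that the higher side held more genes there. That table gave nearly the same values as median scaling, such as 0.23 for Bcl6 in both. Both had 307 higher genes, but the table had 255 lower ones against 380. It holds 23296 probes, against 41163 used here, so the sets of genes are not alike. Scaling to the median adds 0.12 to every log2 difference, which turned the median of the factors to 0.03 and turns the sign of any gene between −0.12 and 0. Of the 7 factors, 3 lay above the all-gene median, namely Bcl6, Spib and Pou2f2, and 5 lay within the all-gene quartiles. Irf4 lay below them, with 18.7% of all genes lower, and Bcl6 just above, with 75.9% lower.

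**Figure D2:**
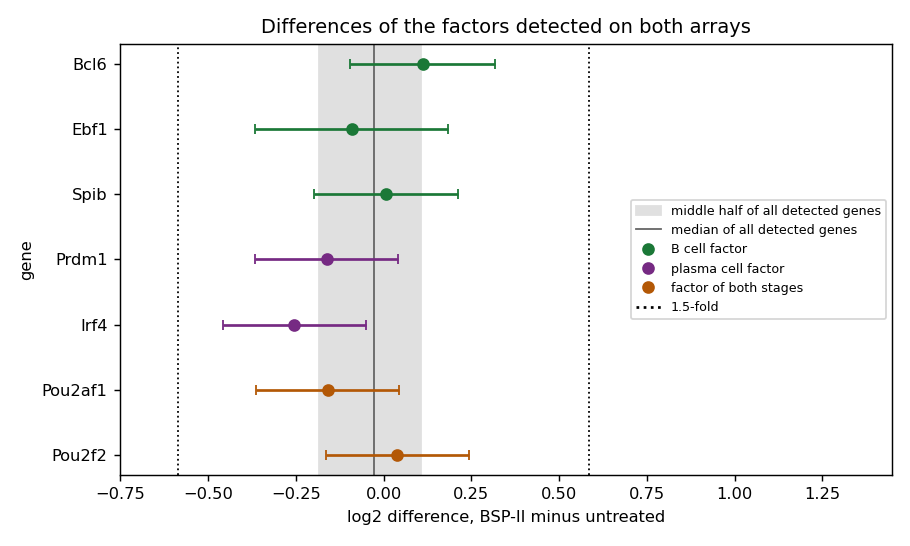
Log2 difference, BSP-II minus untreated, of the 7 factors detected on both arrays, with the spot error carried to the difference as bars. The grey band spans the quartiles of all 12855 detected genes, −0.18 to 0.11, and dotted lines mark 1.5-fold. Every bar but that of Irf4 crosses 0, and no point lies near a dotted line.

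**Figure D3:**
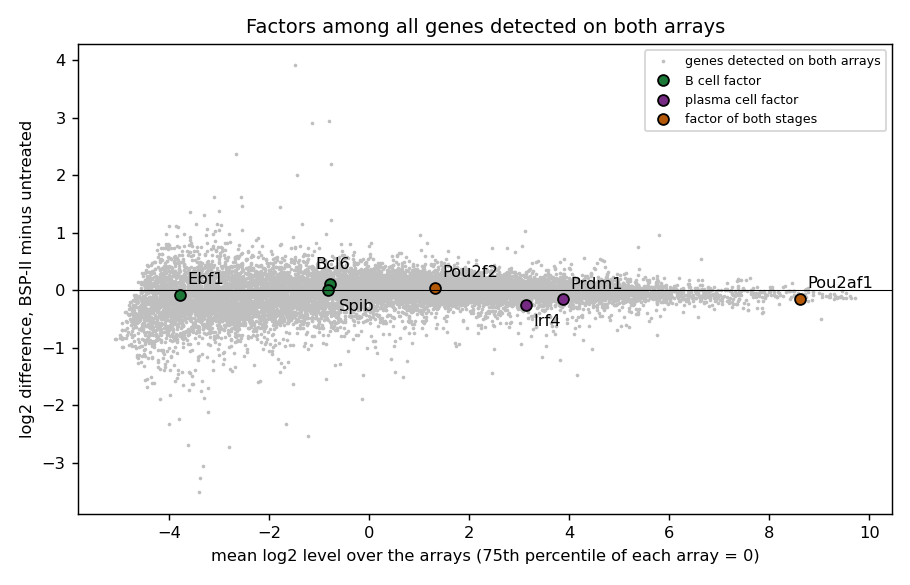
Log2 difference, BSP-II minus untreated, against the mean log2 level of both arrays, for the 12855 genes detected on both (grey) and the 7 factors (coloured by stage). The factors lie inside the cloud of genes of a like level, from Ebf1 at the dim end to Pou2af1 at the bright end.

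A comparison of the B cell with the plasma cell factors does not depend on a constant scaling of the arrays. The median difference of Bcl6, Ebf1 and Spib was 0.01, that of Prdm1 and Irf4 was −0.21, and the gap between these medians was 0.21. It ran from 0.13 to 0.27 over 11 alternatives and was chosen for description after the values were seen. Some of these could not move the gap: median scaling and the authors' deposited table are constant shifts, and each gene has 1 probe to choose. The positive-and-significant call also left the gap at 0.21. The gap is about as large as the spot error of 1 gene's difference, 0.20, and rests on 3 genes against 2. No error was computed for the gap itself. Across 4032 genes with several detected probes, the brightest probe differed from the next by a median of 0.13 and, at the 90th percentile, by 0.48. Each of the 7 detected factors had 1 probe of 1 spot, so this source of error could not be averaged. Within 3 rows and columns of the 7 spots, no detected spot was 2-fold different in either direction. Within 10 rows and columns, the median difference around them lay between −0.03 and 0.02 of the array-wide one.

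**Figure D4:**
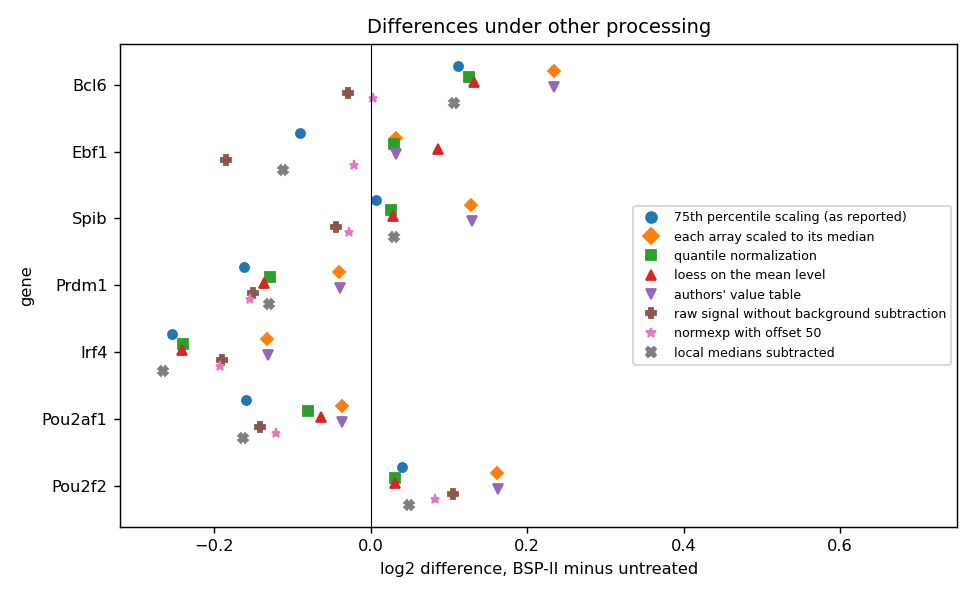
Log2 difference, BSP-II minus untreated, of the 7 factors under 75th percentile scaling and 7 other ways of processing. Prdm1, Irf4 and Pou2af1 stay left of 0 and Pou2f2 right of 0 under all 8, while Ebf1, Spib and Bcl6 fall on both sides.

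Genes that these factors are known to govern were examined as lists, whose counts stand beside the shares of all named genes, 74.3% detected on both arrays and, of those, 1.21% at least 1.5-fold higher and 4.83% at least 1.5-fold lower. Of 33 listed B cell genes, activated by Pax5, Ebf1 or Spib or repressed by Prdm1, 31 had a probe and 26 were detected on both arrays. None was 1.5-fold higher or lower, against 6.04% of all detected genes, so that few would be so in a list of this size. Their median was −0.18, at the lower quartile of all genes, with 7 of the 26 above the all-gene median. With each array scaled to its median it was −0.06. Cd79a, a signalling chain of the B cell receptor, was dim, at 22.3 with BSP-II and 23.7 without. Its partner chain Cd79b, named with Ms4a1 after their values were seen, had 19144 with BSP-II and 17742 without, a log2 difference of −0.10 with a spot error of 0.20. Ms4a1 (CD20), a surface protein of B cells, had 1408 with BSP-II and 1628 without, or −0.41, beyond its spot error of 0.20. Ciita, the MHC class II coactivator that Blimp-1 silences, was called detected on the BSP-II array alone, at 14.9, against 13.5 on the untreated array, and its scaled signal gave no fold above 1. The recombination genes Rag1 and Rag2 were detected on neither array.

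Of 35 listed plasma cell genes, 34 were detected on both arrays, with a median of −0.09 that turned to 0.03 with each array scaled to its median. None was 1.5-fold higher and 1 was 1.5-fold lower. The exception was Eaf2, an elongation factor partner, at −0.86 by its brightest probe but −0.08 by its other one. Xbp1, the factor that expands the secretory apparatus, had 10932 with BSP-II and 8889 without, a log2 difference of 0.09. Sdc1 (CD138), the surface marker of plasma cells, had 12123 with BSP-II and 11219 without, or −0.09. Jchain, the joining chain of secreted IgM and IgA, had 155073 with BSP-II and 150869 without, or −0.17. All 3 lay within their spot error of 0.20.

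Among 54 other B lineage regulators, 44 were detected on both arrays, with a median of −0.05 (0.07 under median scaling), 1 at least 1.5-fold higher and 2 lower, against 1.21% and 4.83% of all genes. The lower ones were Id3 and Id2, which encode inhibitors of E proteins, and Id1 of the same family was detected on neither array. Id3 had 478 with BSP-II and 694 without, a log2 difference of −0.74 from 1 probe. Id2 had 718 with BSP-II and 987 without, or −0.66, and −0.36 by its other probe. With each array scaled to its median Id2 was at −0.54, under 1.5-fold, as it was with normexp (−0.52), without background subtraction (−0.51) and in the authors' deposited table (−0.54). Hhex, a homeobox factor, was at 0.68 by 1 probe and −0.59 by its dimmer one, and at 0.25 with normexp. Spi1 (PU.1), the relative of Spib, had 147 with BSP-II and 111 without, a log2 difference of 0.20 with a spot error of 0.21.

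Of 42 listed names of cofactors and partners of the factors, 39 had a probe. Brg1 and Cbp stand in that list beside Smarca4 and Crebbp, which are the same genes. Of the 39, 38 were detected on both arrays, with a median of −0.01 (0.11 under median scaling). Maff, a small Maf protein of the family that pairs with Bach2, was 1.53-fold higher, with 87.1 on the BSP-II array and 49.3 on the untreated array. Crebbp, a histone acetyltransferase, was 1.61-fold lower, with 22.7 on the BSP-II array and 31.7 on the untreated array. Both rested on 1 probe, and without background subtraction they were at 0.28 and −0.33. Crebbp was under 1.5-fold as well with median scaling (−0.56), quantile (−0.56), loess (−0.52) and normexp (−0.13), and in the authors' deposited table (−0.56). Maff was at 0.37 with normexp.

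The labelled cell type was checked against its markers, beside the 74.3% of all named genes detected on both arrays. All 6 plasma cell markers and all 5 B cell markers were detected on both arrays by their brightest probe. For the B cell marker Cd22 that call was marginal. Its brighter probe had 12.6 on the untreated array, where the lowest detected signal was 11.8 and Ciita, at 13.5, was not called detected. Its other probe, at 4.43 with BSP-II and 5.16 without, was detected on neither array. Of the markers of other cell types with a probe, 7 of 11 for T cells, 6 of 9 for macrophages and 4 of 8 for fibroblasts were detected on both arrays. The T cell and macrophage shares lie near that of all genes, so that these counts alone do not tell cell types apart. The summed signals below are not scaled, so a sum 1.15 times higher on the BSP-II array stands for no difference. They do not compare cell types, whose probes differ. After scaling, the median log2 difference of the detected markers was −0.13 for plasma cells and −0.28 for B cells. It was −0.27 for T cells, −0.32 for macrophages and −0.21 for fibroblasts. The sum of the plasma cell markers was 246704 with BSP-II and 232302 without, most of it Jchain, at 155073 and 150869. That of the B cell markers was 20787 with BSP-II and 19616 without, most of it Cd79b, at 19144 and 17742. The T cell markers summed to 971 with BSP-II and 909 without, the macrophage markers to 3152 with BSP-II and 3329 without, and the fibroblast markers to 116 with BSP-II and 113 without. Mpeg1, at 2912 with BSP-II and 3138 without, made up most of the macrophage sum. The macrophage markers Lyz2 and Cd163 and the fibroblast markers Dcn, Pdgfra and Fbn1 were not well above background on either array. The part of other cells in the factors' signals was not tested.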

How the data were processed

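Spots were quantified by Agilent Feature Extraction (version 10.5.1.1), as the submitters' processing notes state. Per the file headers, the deposited intensity values are each spot's raw median brightness, local background and a background-subtracted, detrended processed signal with its error. The deposited flags mark saturated, outlier, positive and well-above-background spots. The authors' deposited value table holds log2 values with column medians of 2.99 (BSP-II) and 2.88 (untreated). For 99.7% of its 23296 probes it matches the log2 processed signals within 0.001 after shifts of −4.94 (BSP-II) and −4.85 (untreated), and the basis of these shifts is unknown.

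Here the log2 processed signal was reduced by each array's 75th percentile. Control spots and 189 outlier spots were left out. Accessions were matched without versions to RefSeq names of GRCm38.p6, since the files hold no symbols. Of 41163 probes 25091 matched, giving 17302 genes. The array grid is on mm9, so no gene coordinates are given beyond those of the RefSeq promoter windows. A gene was represented by its brightest probe. A probe was detected if most of its spots were well above background, as were 27283 probes on the BSP-II array and 24681 on the untreated array, and no non-control spot was saturated. The number of arrays limits the precision.

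All factors are named, with list members at least 1.5-fold different (at most 6 a list) and Xbp1, Spi1, Ciita, Cd79a, Sdc1 and Jchain; some genes of the rule are not reported here. Factors and lists were chosen with earlier results of these data known. Another 8 letter strings were searched in the promoters and are not given. Alternatives were other scalings, backgrounds, detection calls, probe rules and local medians. Gene tables were tested on simulated data. Python 3.11.15, numpy 2.4.6, pandas 2.3.3, matplotlib 3.10.9, R 4.3.3 and limma 3.58.1 were used, limma for normexp, quantile and loess alone.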

Additional observations from a re-analysis of the deposited data

How the results depend on the processing

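No factor detected on both arrays reached 1.5-fold under any alternative that kept a detection call. With the positive-and-significant call 8 factors were counted, and the added one, Irf8, was at −0.58, just under 1.5-fold, with a spot error of 0.47. Its untreated signal was not well above background, so this value serves the count alone. Without any call the count was 1, the undetected Pax5. The log2 differences of the 7 factors moved by less than their spot error in every alternative run, yet the sign of Ebf1, Spib and Bcl6 turned in some. Detection calls and probe rules could not move these differences, since each of the 7 has 1 probe. Counts of all genes depended strongly on the processing. Those at least 1.5-fold higher, 156 as reported, were 307 in the authors' value table and 307 under median scaling, 249 with loess, 681 with no detection call, 456 with the positive-and-significant call, 18 among the brighter genes, 31 with normexp and 33 without background subtraction. The lower ones, 621 as reported, were 255, 380, 384, 2724, 1116, 63, 96 and 167 in that order. At a threshold of 2-fold the counts were 26 and 129. In the authors' value table the share on the higher side was 54.6%. Hhex turned to −0.59 with the dimmest detected probe. The cause of these shifts was not tested. No paired analysis was possible because each group holds 1 array. What the arrays can show of Pax5, Irf8 and Ebf1 is limited by signal over background: the median local background was 37 on the BSP-II array and 46 on the untreated array.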

Other observations

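Lef1, a transcription factor of early lymphocytes, was singled out after its values were seen. It had a signal of 61.2 on the BSP-II array, well above background, and 5.74 on the untreated array, where it was not. With the lowest signal detected on the untreated array, 11.8, in place of its own, it was 4.49-fold higher with BSP-II after scaling. That value is not a strict bound, since some brighter probes, such as Ciita at 13.5, were not called detected on the untreated array. Lef1 rests on 1 spot, and 2 of the 21 detected spots within 3 rows and columns were also at least 2-fold higher. Their part in the value was not tested.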
